A study of Mus musculus with 9 samples.

Results

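The ADAMTS, MMP and TIMP genes encode the secreted and membrane-bound proteases that cut the extracellular matrix, and the inhibitors that hold them in check. They were followed here in mouse satellite cells, the stem cells of skeletal muscle, by RNA sequencing. Members were all protein-coding genes whose symbols are Adamts, Adamtsl, Mmp or Timp followed by a number, which gave 52 of the 45706 genes in the table: 19 ADAMTS, 5 ADAMTS-like, 24 MMP and 4 TIMP genes. Mmp27 is listed under 2 identifiers, so the 52 genes carry 51 symbols. Satellite cells came from wild-type C57Bl6 mice aged 12 to 20 weeks and were sampled at 3 stages. The first group is labelled freshly isolated, although the labels repeat 1 culture protocol for all samples. Proliferating cells had been kept for 3 days or longer with human FGF-2 at 2.5 ng/ml and fetal calf serum at 20%. The third group, labelled myotubes by title and differentiating by stage, had then spent 6 days in medium with 2% horse serum. Each stage had 3 libraries from different animals, 9 in all, and stage, medium and time in culture change together, so they cannot be told apart.

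ADAMTS proteases are secreted and bind the matrix around the cell. Several of them cut large proteoglycans such as versican and aggrecan, others trim procollagens, and a further group acts on cartilage oligomeric matrix protein or on the microfibrils built from fibrillin. ADAMTS-like proteins share their binding domains but lack the protease domain. MMPs are made as inactive precursors, are secreted or held at the membrane, and cut collagens, laminins and other matrix proteins, while TIMPs bind to the active site of MMPs and, for TIMP3, of several ADAMTS proteases as well. In muscle these enzymes act on the basal lamina, under which the satellite cell lies.

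The deposited values, called normalized read counts below, are gene counts brought to a common scale and rounded by the submitters. Library totals were 20.1 to 26.2 M for freshly isolated cells, 17.8 to 18.2 M for proliferating cells and 19.5 to 20.8 M for myotubes, from an estimated 12.0 to 24.3 M reads. A floor of 3 reads corresponded to 2.25 to 6.54 normalized counts. Freshly isolated replicate 1 had the fewest reads and gave 22.2% of its total to 1 non-coding gene, Gm26917, against 10.6% and 11.2% in replicates 2 and 3. Proliferating replicate 1 lay below both other libraries of its stage in 16 of the 33 tested members, against 35.3% of all genes tested. It lay above both in 12, against 35.0% of all genes tested. Pax7, the transcription factor of the lineage, averaged 13429, 2851 and 1364 over the 3 stages, and Myod1, which marks committed myoblasts, 5782, 21146 and 7043. Markers of differentiation varied within stages. Myh3, the embryonic myosin heavy chain, averaged 318334 in myotubes and had 3055, 23038 and 15385 in the proliferating libraries, where Myog, a regulator of differentiation, had 2179, 9530 and 8749. In the freshly isolated libraries Myog had 1257, 62 and 218. Some members were likewise lowest in proliferating replicate 1 within that stage, among them Adamts5 and Adamtsl2 below. Others were highest there, among them Adamts14 and Adamts6. The part of this spread in the values of members was not tested. Because whole cell populations were sequenced, fewer cells of a type and less RNA per cell cannot be told apart.

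Of the 52 genes, 33 reached 10 normalized counts in at least 3 libraries and were tested, and 25 of them had a mean of 100 or more in some stage. The mean was highest in freshly isolated cells for 22 of the 33, in proliferating cells for 6 and in myotubes for 5. Some of the 22, such as Mmp25 and Adamts17, passed the filter only through the freshly isolated libraries. The share over all genes is not given here, so nothing is drawn from these counts. Summed over all members, values were 52102 to 56400 in the freshly isolated, 11612 to 13483 in the proliferating and 13583 to 14001 in the myotube libraries. The ADAMTS genes made up most of that difference, with sums of 35000 to 39931, 5258 to 5612 and 5759 to 5891 in the same order. TIMP sums ran from 7617 to 9766 in freshly isolated, from 4167 to 6270 in proliferating and from 4949 to 5084 in myotube libraries. MMP sums ran from 3740 to 4905, from 1594 to 1813 and from 2194 to 2459, and ADAMTS-like sums from 3459 to 4105, from 176 to 239 and from 615 to 689. In each of the 4 families the lowest freshly isolated library lay above the highest library of either cultured stage. Taken relative to the library totals, this no longer held for the TIMP sums against proliferating cells. Per M of library total they were 290.6, 479.2 and 426.2 in freshly isolated and 234.5, 345.4 and 327.5 in proliferating libraries. The myotube libraries, at 243.4 to 258.9, still lay below all freshly isolated ones, and the other families stayed separate.

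**Figure D1:**
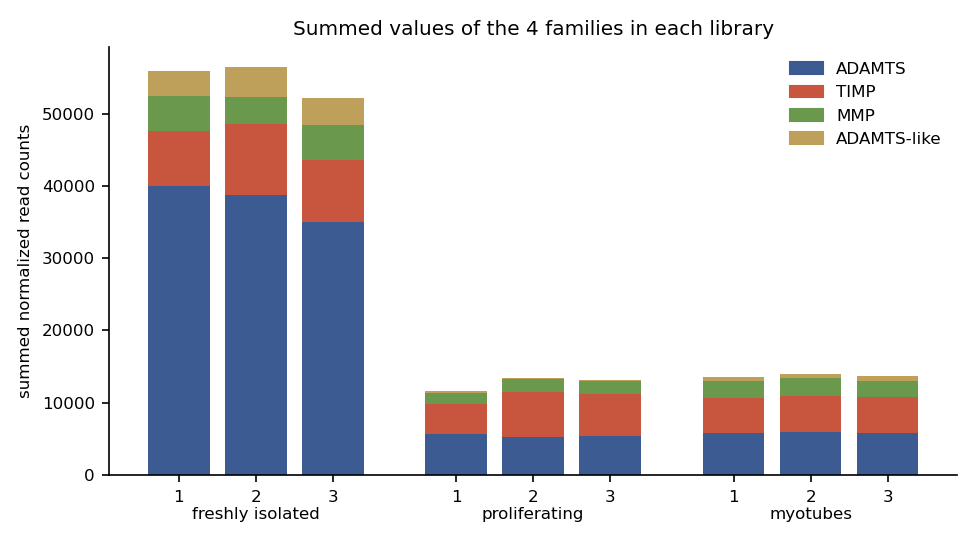
Summed normalized read counts (vertical axis) of the ADAMTS, TIMP, MMP and ADAMTS-like genes in each of the 9 libraries, stacked by family, with replicate numbers under the bars. The 3 freshly isolated libraries stand at 52102 to 56400 and the 6 cultured libraries at 11612 to 14001.

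The tests compared the stages gene by gene with limma over all 17291 genes kept, and the threshold for a call was 0.05 after Benjamini-Hochberg adjustment. In proliferating against freshly isolated cells, 8 of the 33 tested members were higher and 21 lower, where 37.6% of all genes tested were called higher and 35.7% lower. From proliferating cells to myotubes 14 were higher and 6 lower, where 28.6% and 25.5% of all genes were. Myotubes against freshly isolated cells gave 9 higher and 19 lower, where 40.2% and 37.3% of all genes were. The median log2 change of the tested members was -2.69, 0.34 and -1.003 in these 3 comparisons, and that of all genes tested was 0.07, 0.04 and 0.10. Each stage enters 2 of the comparisons, so these counts share libraries. Scaling every library to the same total would move the median of all genes by 0.30, -0.16 and 0.14 on the log2 scale, and no called member changed direction under it.

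**Figure D2:**
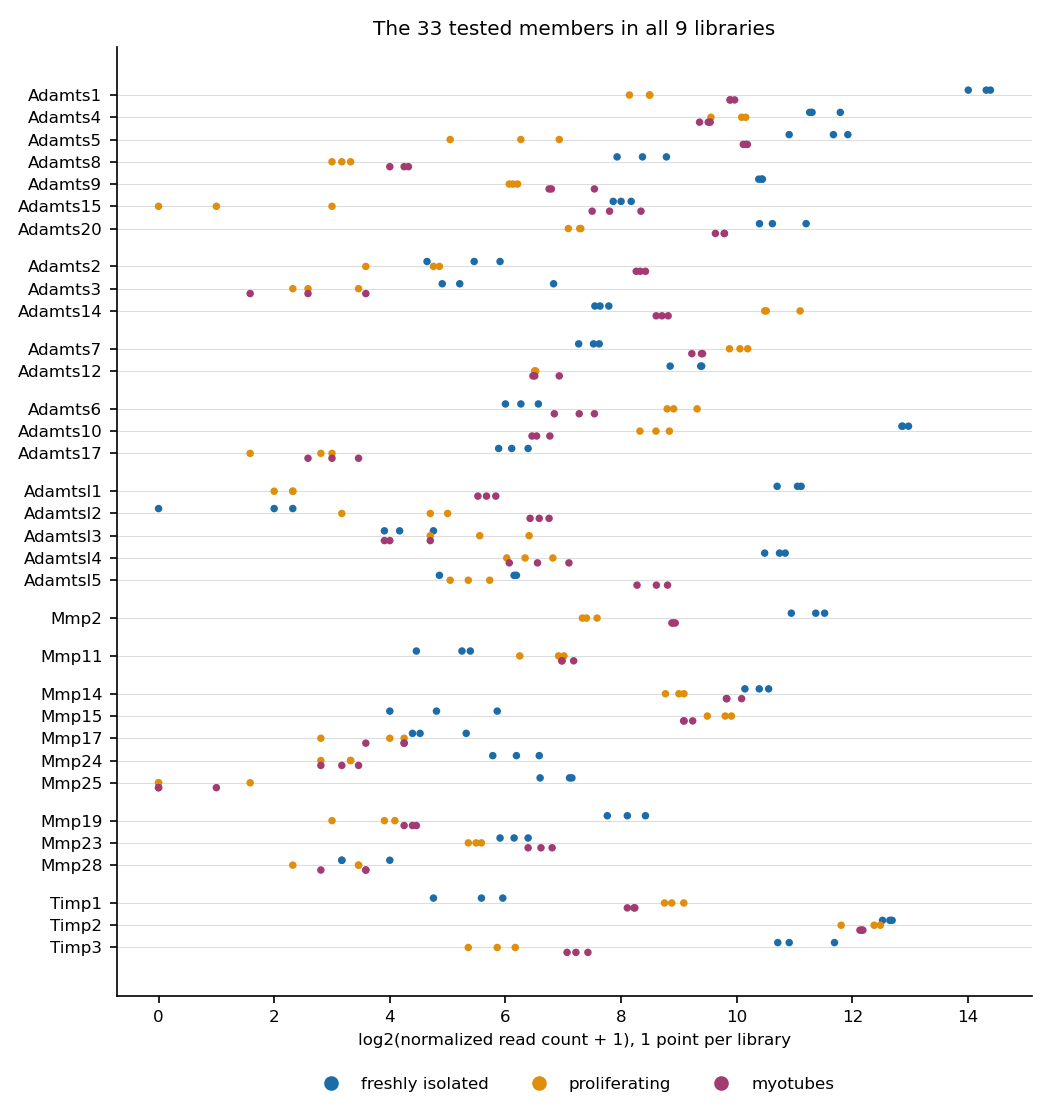
Log2(normalized read count + 1) of the 33 tested members (rows, grouped by role) in all 9 libraries, 1 point per library, coloured by stage. The freshly isolated points have the highest mean for 22 of the 33 members, some of which passed the filter only through that stage.

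The proteoglycanases, the ADAMTS enzymes known for cutting versican and aggrecan, fell together when the cells were cultured: all 7 tested members were lower in the proliferating cells, with a median log2 change of -5.20. From proliferating cells to myotubes 6 of the 7 rose and none fell, and against freshly isolated cells 6 were still lower in myotubes. Over all genes 35.7% fell at the first step, 28.6% rose at the second and 37.3% were lower in myotubes than in freshly isolated cells. Adamts1, which is also known to bind VEGF (chromosome 16, 85793827 to 85803113), had 21444, 20407 and 16445 normalized counts in the freshly isolated libraries, 282, 359 and 360 in the proliferating and 998, 945 and 946 in the myotube libraries. The 3 stages did not overlap. The log2 change was -5.86 ± 0.13 (SE) into proliferation, a 58.1-fold fall (adjusted p = 3.6e-10), and 1.53 ± 0.13 from there to myotubes (adjusted p = 6.22e-06). Adamts1 alone gave 47.0 to 53.7% of the ADAMTS sum in the freshly isolated libraries. The immediate early gene Fos, which dissociation of tissue is known to induce, averaged 29135 ± 3109 (SD, n = 3) there, against 30.7 ± 5.77 in proliferating cells and 113 ± 3.06 in myotubes. Its part in the Adamts1 values was not tested.

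Adamts5 lies 53059 bases from Adamts1 on the same strand of chromosome 16 and encodes a versican-cutting enzyme that has been linked to myoblast fusion. It had 1920, 3880 and 3265 normalized counts in freshly isolated, 32, 121 and 76 in proliferating and 1107, 1140 and 1163 in myotube libraries. The stages were again separate, but myotubes stood much nearer to freshly isolated cells than they did for Adamts1. Its log2 changes were -5.42 ± 0.41 into proliferation (adjusted p = 9.81e-07), 4.07 ± 0.41 from proliferating cells to myotubes (adjusted p = 2e-05) and -1.35 ± 0.41 for myotubes against freshly isolated cells (adjusted p = 0.0117). Adamts20, a relative of Adamts9, went from 2353, 1345 and 1570 to 135, 157 and 155 and then to 881, 792 and 883, an 11.4-fold fall and a 5.69-fold rise. Adamts15 was the one proteoglycanase for which myotube and freshly isolated libraries overlapped: 255, 232 and 288 in freshly isolated, 0, 7 and 1 in proliferating and 222, 324 and 180 in myotube libraries. Its log2 changes of -6.68 ± 0.63 and 6.55 ± 0.63 rest on proliferating values at or near the floor, and leaving out proliferating replicate 1 or 2 moved the first to -6.01 or -7.51 and the second to 5.88 or 7.38. For Adamts15 the difference between myotubes and freshly isolated cells was -0.13 ± 0.63 (adjusted p = 0.857).

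From proliferating cells to myotubes Adamts9 and Adamts8 rose less on the log2 scale than these, and Adamts4 did not rise. Adamts9 had 1333, 1392 and 1381 in freshly isolated, 69, 73 and 66 in proliferating and 107, 185 and 110 in myotube libraries, a log2 rise to myotubes of 0.89 ± 0.20 (adjusted p = 0.00397). Adamts8, the neighbour of Adamts15 at a distance of 20109 bases, had 440, 330 and 243, then 9, 8 and 7, then 19, 18 and 15. Its rise of 1.03 ± 0.31 (adjusted p = 0.0171) missed the threshold once proliferating replicate 3 (adjusted p = 0.0511) or myotube replicate 1 (adjusted p = 0.0589) was left out. Adamts4 was the highest of the group per kilobase of exon in proliferating cells, with normalized counts of 3545, 2456 and 2526 in freshly isolated, 751, 1140 and 1086 in proliferating and 727, 744 and 655 in myotube libraries. All its myotube libraries lay below its proliferating ones, but the change of -0.46 ± 0.18 missed the threshold (adjusted p = 0.0524). It was called without freshly isolated replicate 1 (adjusted p = 0.0127) or proliferating replicate 1 (adjusted p = 0.00872). The Adamts4 fall also passed with a pseudocount of 5 (adjusted p = 0.0477), a filter at 50 (adjusted p = 0.0461), libraries scaled to equal totals (-0.64, adjusted p = 0.0065) and a fit of those 2 stages alone (adjusted p = 0.0189). No source used here says whether the counting used strand, and genes on the opposite strand overlap 10.6% of the exon bases of Adamts8 and 3.56% of those of Adamts4. On Adamts9 they are A730049H05Rik (9.18%) and Gm15737 (2.82%), which averaged 51 and 78.7 in freshly isolated cells and 2 and 3 in proliferating cells, and their part in the Adamts9 values was not tested.

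Most markers of fibro-adipogenic cells and fibroblasts fell with the proteoglycanases into proliferation, 5 of 6 tested, where 35.7% of all genes fell. From there to myotubes 1 rose, 1 fell and 4 were not called, where 28.6% of all genes rose and 25.5% fell. The sum of the 8 markers was 8529 to 9608 in freshly isolated, 25 to 40 in proliferating and 208 to 512 in myotube libraries, led by Col15a1 with a mean of 5035 and Dpt with 3084 in freshly isolated cells. Col15a1 alone, with 258, 481 and 172, made up most of the myotube sums. The defining marker Pdgfra had 4, 5 and 9 in freshly isolated, 19, 13 and 22 in proliferating and 14, 12 and 17 in myotube libraries, and so rose into proliferation (log2 1.47, adjusted p = 0.0078). Ly6a was at 0, 5 and 6 in the freshly isolated libraries. Leukocyte markers summed to 662 to 695, 64 to 85 and 245 to 259, led by Cd68 with 600 in freshly isolated cells. In myotubes they were led by Itgam with 222, and Cd68 averaged 22.7. Adgre1 was listed at 0 in all freshly isolated libraries, where Ptprc had 0, 0 and 14. Endothelial markers summed to 105 to 227, 54 to 98 and 20 to 28, and Schwann cell markers to 197 to 303, 89 to 95 and 59 to 98. The part of these markers in the results was not tested.

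**Figure D3:**
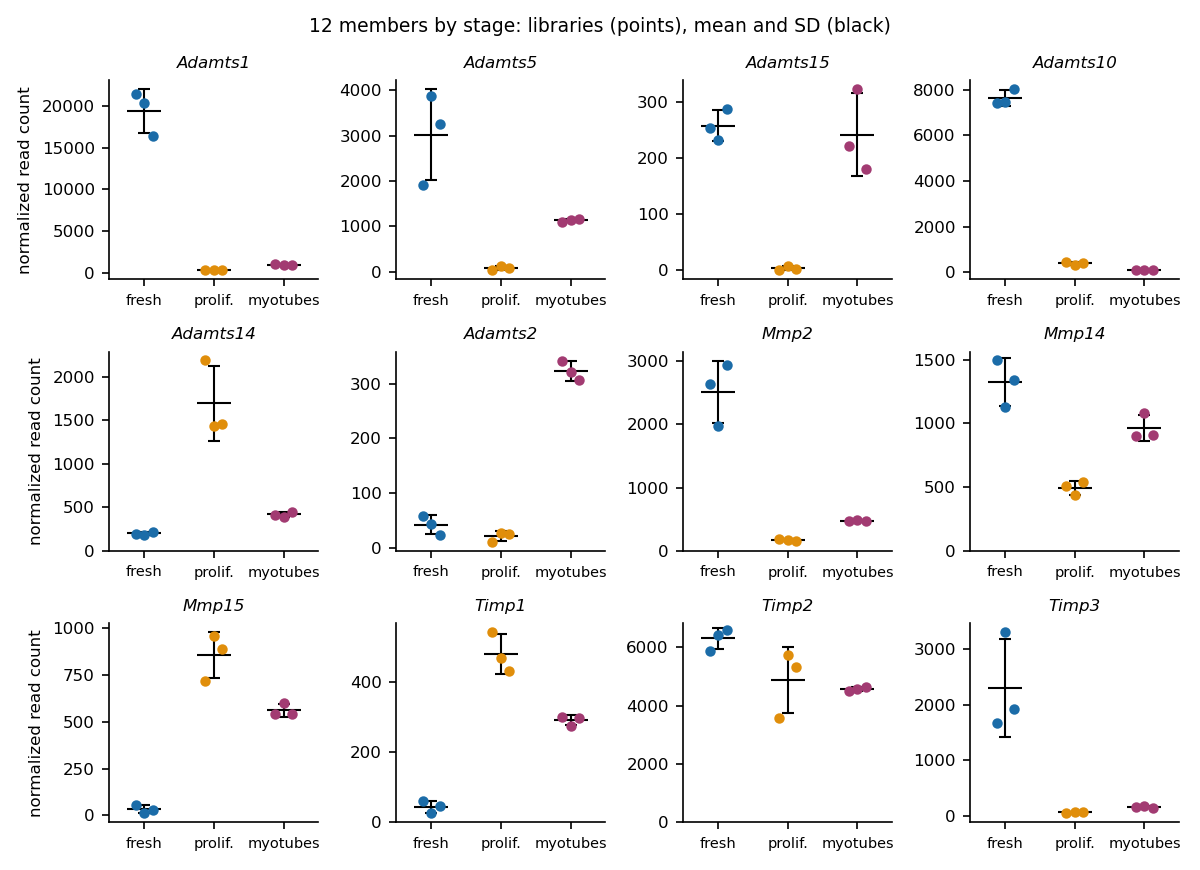
Normalized read counts (linear vertical axes that differ between panels) of 12 members by stage, with 1 point per library and the mean and SD in black. Adamts1 and Adamts10 stood far higher in freshly isolated cells than in either cultured stage. Adamts15 was low in proliferating cells alone, and Adamts14 and Timp1 were highest in proliferating cells.

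The 3 procollagen N-proteinases, which trim the amino end of fibrillar procollagens, were each highest at a different stage. Adamts14 (chromosome 10, 61197112 to 61273438) had 198, 186 and 220 in freshly isolated, 2189, 1432 and 1459 in proliferating and 417, 389 and 449 in myotube libraries. It rose by 3.04 ± 0.17 on the log2 scale into proliferation, 8.23-fold (adjusted p = 1.01e-07), and fell by 1.99 on that scale to myotubes (adjusted p = 6.55e-06). Adamts2 had 59, 43 and 24, then 11, 28 and 26, then 342, 321 and 306, so the myotube libraries stood far above the other 6 and the other stages overlapped. Its rise from proliferating cells to myotubes was 15.3-fold (log2 3.94 ± 0.41, adjusted p = 2.39e-05). The earlier difference of -0.94 ± 0.41 missed the threshold (adjusted p = 0.0595) and passed it once freshly isolated replicate 3 (adjusted p = 0.0159) or proliferating replicate 2 (adjusted p = 0.0438) was left out. Adamts3 was low throughout, with 113, 36 and 29, then 10, 4 and 5, then 11, 5 and 2. It was lower in both cultured stages, by -2.86 ± 0.66 and -3.06 ± 0.66 on the log2 scale, and by -2.27 and -2.47 without freshly isolated replicate 1.

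Among the procollagens that these enzymes act on, Col1a2 had 157, 80 and 35 in freshly isolated, 324, 778 and 629 in proliferating and 5453, 6401 and 5330 in myotube libraries. Its highest libraries were thus those of the stage where Adamts2 was highest. Col1a1 fell first and then rose, from 307, 160 and 151 to 18, 27 and 16 and then to 834, 631 and 658, a log2 rise of 5.08 from proliferating cells to myotubes (adjusted p = 1.28e-06). Col3a1 was instead highest in freshly isolated cells, with means of 12145, 3136 and 3848 (log2 -1.84 into proliferation, adjusted p = 0.000132). Bmp1, the protease that trims the other end of procollagens, fell at each step, with means of 4261, 1191 and 622. Of 4 tenocyte markers, Scx rose at each step, with means of 106, 1648 and 3745, while Mkx averaged 127, 91.7 and 65.3 and was lower in myotubes than in freshly isolated cells (adjusted p = 0.00381). Tnmd and Kera were listed at 0 in all cultured libraries, and the sums of the 4 were 187 to 262, 1594 to 1844 and 3163 to 4145. Pericyte and smooth muscle markers summed to 2980 to 4231, 8655 to 20085 and 62656 to 63599, led by Acta2, which differentiating muscle cells also express. Of the 7 tested, 2 rose and 3 fell into proliferation (37.6% and 35.7% of all genes). From there to myotubes 4 rose and 1 fell (28.6% and 25.5%). Rgs5 averaged 64.3, 6.33 and 56.7, Kcnj8 47, 1.33 and 0.33, and Cspg4 398, 1810 and 162. Their part in these results was not tested.

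Adamts7 and Adamts12, which both bind and cut cartilage oligomeric matrix protein, went opposite ways. Adamts7 had 196, 183 and 153 in freshly isolated, 938, 1064 and 1167 in proliferating and 597, 670 and 679 in myotube libraries, a 5.94-fold rise followed by a fall by 0.70 on the log2 scale (adjusted p = 0.00131). The opposite-strand gene Tbc1d2b overlaps 1.94% of its exon bases and averaged 1176, 600.3 and 194 over the same stages. Adamts12 had 460, 664 and 672, then 90, 91 and 90, then 90, 121 and 88, a 6.47-fold fall with no call between the cultured stages (log2 0.13 ± 0.20, adjusted p = 0.628). The substrate gene itself, Comp, was at 26, 104 and 66 in freshly isolated libraries and at 2 to 9 in the cultured ones.

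Adamts10 and Adamts6 are paralogs that act on fibrillin microfibrils, and they too moved in opposite directions. Adamts10 (chromosome 17, 33524204 to 33553782) was the second most abundant ADAMTS gene per length in freshly isolated cells, with 7421, 7477 and 8031 normalized counts. It stood at 456, 320 and 388 in proliferating and 92, 108 and 87 in myotube libraries, with no overlap at either step. Myotubes were 79.4-fold lower than freshly isolated cells (log2 -6.31 ± 0.14, adjusted p = 3.15e-10). Adamts6 rose 6.63-fold, from 76, 94 and 63 to 636, 444 and 480, and fell 3.45-fold to 154, 114 and 185. Adamts17, whose human counterpart is mutated in a Weill-Marchesani-like syndrome, averaged 69.7, 5 and 7.33 and was called lower in both cultured stages. The remaining members of this mixed group, Adamts16, Adamts18 and Adamts19, did not exceed 3 in any library.

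Of the 5 ADAMTS-like genes, 2 rose and 2 fell into proliferation, near the 37.6% and 35.7% of all genes, and 3 rose and 1 fell from there to myotubes, where 28.6% and 25.5% of all genes did. Adamtsl1 had 1662, 2216 and 2122 in freshly isolated, 3, 4 and 4 in proliferating and 45, 50 and 56 in myotube libraries. Its fall of -8.74 ± 0.23 was the largest of all tested members (adjusted p = 8.49e-10), and its proliferating values stood just above the floor. Adamtsl4, which binds microfibrils, had 1710, 1831 and 1431, then 112, 64 and 80, then 93, 136 and 66, a 19.6-fold fall with overlapping cultured stages. Adamtsl5 was instead highest in myotubes, with 70, 28 and 72, then 32, 52 and 40, then 390, 309 and 446, a 9.11-fold rise from proliferating cells (adjusted p = 4.68e-05). Its first 2 stages overlapped (log2 -0.36 ± 0.37), with a call of -0.79 without freshly isolated replicate 2 (adjusted p = 0.0223).

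Adamtsl2, a binding partner of the latent TGF-beta complex, rose at each step, from 0, 4 and 3 to 8, 31 and 25 and then to 85, 95 and 107. The first 3 values are at or near the floor, so the log2 changes of 2.85 ± 0.66 and 5.15 ± 0.66 against freshly isolated cells depend on the pseudocount, and without freshly isolated replicate 1 they were 2.13 and 4.43. For Adamtsl2 the second step, 2.30 ± 0.66 (adjusted p = 0.0138), was lost without proliferating replicate 1 (adjusted p = 0.0563). Adamtsl3 was called higher in proliferating cells than before (log2 1.28, adjusted p = 0.0328) and lower after (-1.35, adjusted p = 0.0348), but its libraries overlapped, at 17, 26 and 14, then 84, 25 and 46, then 15, 25 and 14. The first of these calls was lost without freshly isolated replicate 3 or proliferating replicate 1 or 3 (adjusted p = 0.0934, 0.133 and 0.0736). The second was lost without proliferating replicate 1 or 3 or myotube replicate 1 or 3 (adjusted p = 0.138, 0.0808, 0.101 and 0.109). With the replicate numbers as a block, both calls on Adamtsl3 were lost (adjusted p = 0.0516 and 0.0559), as they were with no filter (adjusted p = 0.0544 and 0.0612). The first was lost too in a fit of those 2 stages alone (adjusted p = 0.0528).

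Of the 24 MMP genes, 10 were tested: 2 rose and 6 fell into proliferation (37.6% and 35.7% of all genes), and 3 rose and none fell from there to myotubes (28.6% and 25.5%). Mmp2, the gelatinase that MMP14 activates at the cell surface (chromosome 8, 92827291 to 92853420), had 2641, 1970 and 2937 in freshly isolated, 191, 168 and 160 in proliferating and 470, 489 and 477 in myotube libraries. The stages did not overlap. It fell 14.3-fold (log2 -3.84 ± 0.15, adjusted p = 1.05e-08) and rose 2.76-fold (1.47 ± 0.15, adjusted p = 2.03e-05). Mmp9, the other gelatinase, did not exceed 5 in any of the 9 libraries.

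Mmp14, the membrane-anchored activator of MMP2, moved the same way over a smaller range, with 1501, 1129 and 1341, then 511, 435 and 543, then 904, 1085 and 909. Its log2 changes were -1.41 ± 0.14 (adjusted p = 6.05e-06), 0.96 ± 0.14 (adjusted p = 0.000195) and, for myotubes against freshly isolated cells, -0.45 ± 0.14 (adjusted p = 0.0117). That last call was lost when each library was scaled to the same total (-0.32, adjusted p = 0.0645). Mmp15, another membrane-anchored MMP, went the other way: 57, 15 and 27 in freshly isolated, 719, 960 and 891 in proliferating and 544, 603 and 541 in myotube libraries. Mmp15 rose 28.7-fold (log2 4.85 ± 0.37, adjusted p = 1.09e-06). All its myotube libraries lay below its proliferating ones, a difference of -0.60 ± 0.37 that was not called (adjusted p = 0.203), but was without freshly isolated replicate 1 (adjusted p = 0.0177) or in a fit of those 2 stages alone (adjusted p = 0.00123). Per kilobase of exon Mmp15 exceeded Mmp14 in proliferating cells, with 159 ± 23 against 83.3, and Mmp14 exceeded Mmp15 in myotubes, with 162 ± 17.3 against 104.

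Mmp25, which is anchored by a lipid tail and is known from neutrophils, had 137, 141 and 96 in freshly isolated libraries. It was at 2, 0 and 0 in proliferating and 0, 1 and 0 in myotube libraries, all at or under the floor, so no fold is given (adjusted p = 2.2e-06 and 1.43e-06). Mmp24 fell from 54, 72 and 95 to 6 to 10 in all cultured libraries, an 8.2-fold fall. The opposite-strand gene BC029722 overlaps 13.6% of its exon bases and averaged 67.3, 53.3 and 79.3, and its part in the Mmp24 values was not tested. For Mmp17 the difference of -1.06 ± 0.47 between proliferating and freshly isolated cells missed the threshold (adjusted p = 0.0659) and passed it once proliferating replicate 2 was left out (adjusted p = 0.0457) or with a pseudocount of 5 (adjusted p = 0.0488). The sixth gene of this class, Mmp16, did not exceed 1.

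Mmp19, a secreted basement membrane protease, had 342, 275 and 216 in freshly isolated, 16, 7 and 14 in proliferating and 18, 20 and 21 in myotube libraries. It was 21.6-fold lower in proliferating cells (adjusted p = 1.31e-06), and 22.3% of its exon bases lie under the opposite-strand gene Tmem198b, which averaged 122, 143 and 152. Mmp23 had 70, 59 and 83, then 47, 40 and 44, then 111, 97 and 83, so myotubes lay above proliferating cells without overlap (log2 1.13 ± 0.24, adjusted p = 0.00264). Its earlier fall of -0.67 ± 0.24 (adjusted p = 0.0273) was lost without freshly isolated replicate 3 (adjusted p = 0.0759), proliferating replicate 2 (adjusted p = 0.0787) or proliferating replicate 3 (adjusted p = 0.0585). It was also lost for Mmp23 with libraries scaled to equal totals (-0.37, adjusted p = 0.225) and in a fit of those 2 stages alone (adjusted p = 0.0643).

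Mmp11, the stromelysin that is cleaved by furin inside the cell, rose 3.23-fold from 41, 21 and 37 to 75, 128 and 120 (adjusted p = 0.000629) and stood at 144, 125 and 125 in myotubes. The opposite-strand gene Chchd10 overlaps 5.58% of its exon bases and averaged 31.7, 148 and 1075 over the same stages, and its part in the Mmp11 values was not tested. Mmp28 averaged 10.3, 8 and 9.33 and was called in no comparison, and 12.0% of its exon bases lie under the opposite-strand gene 1700020L24Rik.

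**Figure D4:**
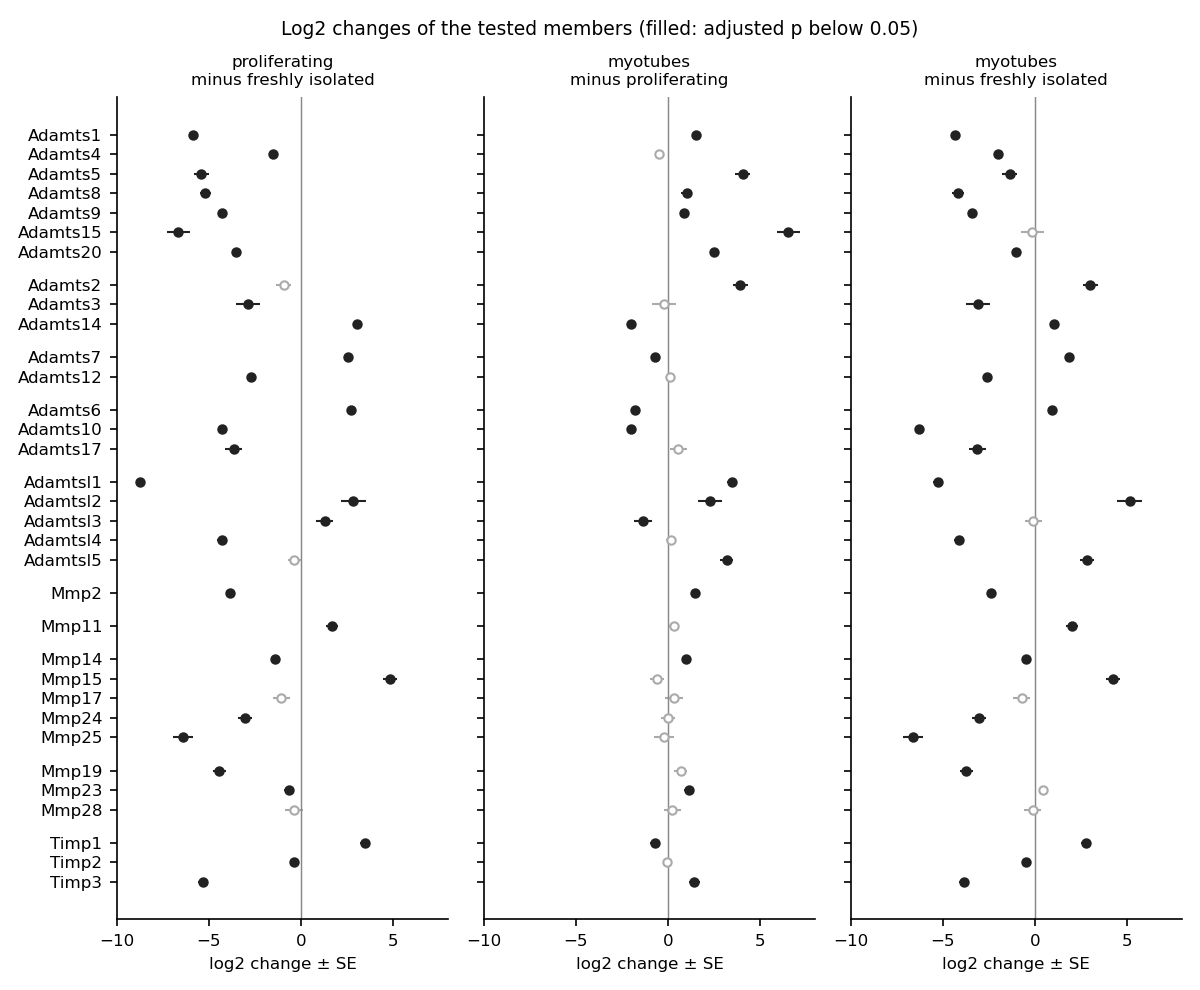
Log2 changes ± SE of the 33 tested members (rows, grouped by role) in the 3 comparisons (panels), with filled points at an adjusted p below 0.05. In the first panel 21 filled points lie left of 0 and 8 right of it, and in the second 6 lie left and 14 right.

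The 19 genes that were not tested are 14 MMP genes, 4 ADAMTS genes and Timp4, and 6 of them were at 0 in all 9 libraries. Of the MMP genes, 10 lie in 1 cluster on chromosome 9 (7272514 to 7699585, 427072 bases): the collagenases Mmp13, Mmp8, Mmp1a and Mmp1b, the stromelysins Mmp3 and Mmp10, the metalloelastase Mmp12, the matrilysin Mmp7, and Mmp20 and Mmp27. None of these collagenases was thus tested. In each stage 27 of the 30 values of these genes were 0, and the highest single value was 2, which is under the floor of 3 reads in every library. At this depth their expression was not detectable. Outside the cluster, Adamts13, the protease of von Willebrand factor, reached 50 in freshly isolated replicate 1 and 7 or less elsewhere, and Mmp21 had 4, 29 and 22 in freshly isolated libraries.

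Promoter sequences from RefSeq (GRCm38.p6), 250 bases before each start site, were matched by symbol for 36 of the 51 symbols, in 39 windows. All 10 cluster genes had a window, but only 22 of the 33 tested members did. The other tested members, among them Adamts5, Adamts10, Adamtsl1 and Mmp2, were not searched. The windows set the undetected cluster apart from these 22 tested members in base composition. G and C made up 37.2 to 53.2% of the 12 cluster windows (median 40.2%) and 54.4 to 80% of the 23 windows of tested members (median 65.6%), where the mean over all 32851 windows was 53.2%. In the 4 windows of other members that were not tested they made up 53.6 to 65.2% (median 53.8%). Many MMP promoters are known to carry a site for AP-1, the dimer of Fos and Jun proteins, and the letters TGANTCA were searched on both strands. They occurred in 6.75% of all windows, in 8 of the 12 cluster windows and in 0 of the 23 windows of tested members. TATAAA, in 12.4% of all windows, was in 7 of the 12 and in 2 of the 23. GGGCGG, the core of an SP1 site, was in 32.7% of all windows, in 0 of the 12 and in 19 of the 23, and its matches may overlap each other. The E-box letters CAGCTG were in 13.0% of all windows and in 9 of the 39 member windows. In the 4 windows of other members that were not tested, TGANTCA was in 0, TATAAA in 1 and GGGCGG in 1. The cluster genes are neighbours of 1 family, so their windows are not independent of each other. These motifs were chosen with results of these data known, and a match is a description of the letters and not a bound site.

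The 100 bases before the start sites of the 8 cluster genes with a TGANTCA match are shown to let the position of the match, in capitals, be compared between them. They run 5′ to 3′ on the strand of the gene, at chr9:7502242-7502341 (plus strand) for Mmp10, chr9:7347274-7347373 (plus) for Mmp12, chr9:7272414-7272513 (plus) for Mmp13, chr9:7464041-7464140 (plus) for Mmp1a, chr9:7388027-7388126 (minus) for Mmp1b, chr9:7628131-7628230 (plus) for Mmp20, chr9:7445722-7445821 (plus) for Mmp3 and chr9:7691990-7692089 (plus) for Mmp7.
Mmp10: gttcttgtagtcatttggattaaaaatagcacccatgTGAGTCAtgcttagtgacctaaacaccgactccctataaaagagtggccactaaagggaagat
Mmp12: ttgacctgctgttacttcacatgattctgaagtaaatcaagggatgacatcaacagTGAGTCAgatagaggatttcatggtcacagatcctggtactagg
Mmp13: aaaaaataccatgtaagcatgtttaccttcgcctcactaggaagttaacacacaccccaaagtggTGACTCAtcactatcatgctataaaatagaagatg
Mmp1a: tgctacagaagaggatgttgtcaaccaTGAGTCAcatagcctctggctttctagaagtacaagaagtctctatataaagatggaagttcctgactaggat
Mmp1b: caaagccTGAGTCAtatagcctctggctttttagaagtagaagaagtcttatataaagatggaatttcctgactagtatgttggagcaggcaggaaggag
Mmp20: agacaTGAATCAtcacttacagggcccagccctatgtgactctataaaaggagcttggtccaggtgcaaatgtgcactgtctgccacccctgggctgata
Mmp3: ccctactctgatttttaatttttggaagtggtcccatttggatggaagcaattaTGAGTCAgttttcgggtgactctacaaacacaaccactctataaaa
Mmp7: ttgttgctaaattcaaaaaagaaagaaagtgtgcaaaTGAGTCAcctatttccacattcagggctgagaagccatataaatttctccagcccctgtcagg

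The matches began between 95 and 35 bases before the start site, at 35 in Mmp13, 44 in Mmp12, 46 in Mmp3, 63 in both Mmp10 and Mmp7, 73 in Mmp1a, 93 in Mmp1b and 95 in Mmp20. The fourth letter was G in 6 of the 8, C in Mmp13 and A in Mmp20. For contrast, the same stretch is shown for the ADAMTS genes with the highest mean in freshly isolated and in proliferating cells, with GGGCGG or its complement CCGCCC in capitals: Adamts1 at chr16:85803114-85803213 (minus strand) and Adamts14 at chr10:61273420-61273519 (minus).
Adamts1: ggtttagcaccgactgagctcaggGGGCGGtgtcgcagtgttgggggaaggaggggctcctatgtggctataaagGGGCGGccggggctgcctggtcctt
Adamts14: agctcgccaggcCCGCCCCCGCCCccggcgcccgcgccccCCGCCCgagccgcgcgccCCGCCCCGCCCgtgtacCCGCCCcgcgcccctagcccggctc

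**Figure D5:**
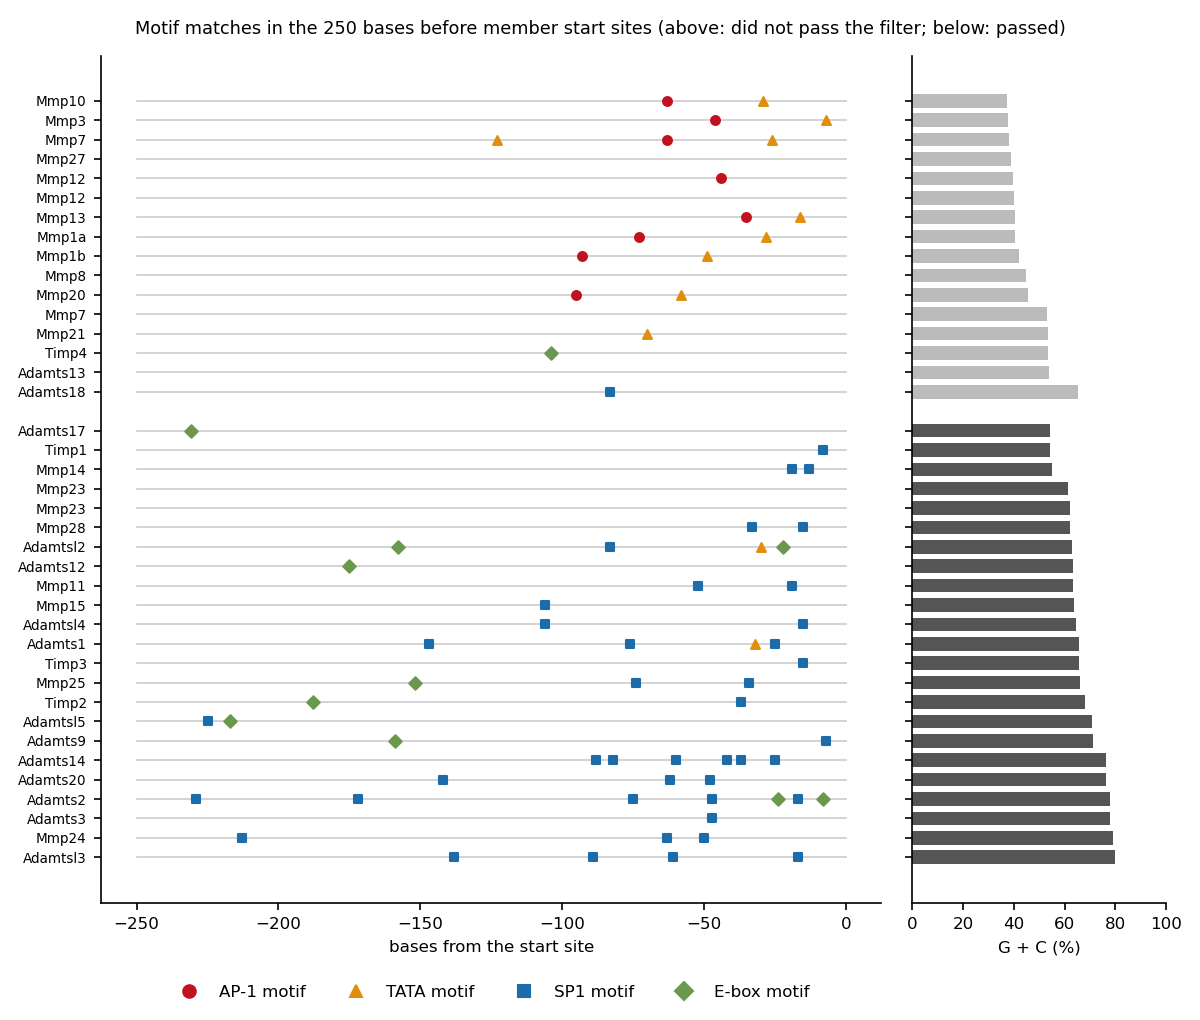
Motif matches (symbols) by distance in bases from the start site in the 39 member promoter windows, ordered by G and C content (bars, percent), with members that were not tested above and tested members below. AP-1 motif matches lie in 8 windows of the upper set, and SP1 motif matches in 19 of the 23 windows of the lower set. The lower set covers 22 of the 33 tested members.

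The inhibitors changed in different directions. Timp2, which takes part in the activation of MMP2 by MMP14 as well as inhibiting MMPs (chromosome 11, 118301069 to 118355740), had 5881, 6425 and 6599 in freshly isolated, 3581, 5730 and 5321 in proliferating and 4487, 4583 and 4646 in myotube libraries. It was thus high at every stage, and gave 85.9 to 91.5% of the TIMP sum in the cultured libraries. Timp2 was called lower in proliferating cells (log2 -0.40 ± 0.15, adjusted p = 0.0376) and in myotubes (-0.46 ± 0.15, adjusted p = 0.0182) than in freshly isolated cells. The first call was lost without freshly isolated replicate 2 or 3 (adjusted p = 0.0853 and 0.1), proliferating replicate 1 (-0.19, adjusted p = 0.0862) or myotube replicate 1, 2 or 3 (adjusted p = 0.0526, 0.0523 and 0.0525). The second was lost without freshly isolated replicate 3 (adjusted p = 0.0568) or myotube replicate 1 (adjusted p = 0.0508), and both were lost with each library scaled to the same total (-0.0945 and -0.33). The first was lost as well with no filter (adjusted p = 0.0559), with no mean-variance trend (adjusted p = 0.0806) and in a fit of those 2 stages alone (adjusted p = 0.0726). Between the cultured stages the difference in Timp2 was -0.06 ± 0.15 (adjusted p = 0.748), and without proliferating replicate 1 it was -0.27 and called (adjusted p = 0.0325).

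Timp3, which stays bound to the matrix and inhibits ADAMTS4 and ADAMTS5, had 1675, 3307 and 1921 in freshly isolated, 40, 71 and 57 in proliferating and 148, 171 and 133 in myotube libraries. It fell 39.6-fold (log2 -5.31 ± 0.28, adjusted p = 7.31e-08) and rose 2.72-fold (adjusted p = 0.00137), with no overlap at either step. The opposite-strand gene Syn3 overlaps 21.3% of the exon bases of Timp3 and averaged 45.3, 2.67 and 2.33. Timp1 (chromosome X, 20870166 to 20874735) rose while Timp3 fell, from 61, 26 and 47 to 542, 469 and 430, an 11.1-fold rise (log2 3.47 ± 0.27, adjusted p = 1.23e-06). It stood at 301, 275 and 298 in myotubes, below every proliferating library. That fall by 0.71 on the log2 scale (adjusted p = 0.0465) was lost without freshly isolated replicate 3, proliferating replicate 1, 2 or 3 (adjusted p = 0.0508, 0.14, 0.097 and 0.0729) or myotube replicate 1, 2 or 3 (adjusted p = 0.096, 0.118 and 0.0985). For Timp1 it was also lost with no filter (adjusted p = 0.0698) or no mean-variance trend (adjusted p = 0.0654). Timp4 reached at most 13, in a myotube library.

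Levels of different members can be set side by side per kilobase of exon. In freshly isolated cells Adamts1 led with 3665 ± 498 normalized counts per kilobase (SD, n = 3), ahead of Timp2 with 1617 ± 96.1, Adamts10 with 926 ± 40.9, Mmp2 with 746 ± 147 and Adamts4 with 591 ± 127. Of these neighbours, the libraries of Mmp2 and Adamts4 overlapped and the others did not. In proliferating cells Timp2 led with 1252 ± 293, followed by Timp1 with 541 ± 64, Adamts14 with 326 ± 82.6, Adamts4 with 206 ± 43.8 and Adamts7 with 168 ± 18.3, and only the last pair overlapped. In myotubes Timp2 with 1174 ± 20.6 and Timp1 with 328 ± 16 were again first, followed by Adamts1 with 182 ± 5.72, Mmp14 with 162 ± 17.3, Adamts4 with 147 ± 9.82 and Mmp2 with 142 ± 2.85. From Adamts1 onwards each of these overlapped with the next. Per kilobase, transcripts of 1 protease gene thus stood above those of all member inhibitors in freshly isolated cells. In both cultured stages transcripts of 2 inhibitor genes stood above those of all member proteases. The place of Timp1 depends on its exon length of 888 bases. By normalized count it averaged 480 in proliferating cells, below Adamts14 with 1693, and 291 in myotubes, below Adamts5 with 1137.

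Proteins that activate, inhibit or are cut by these enzymes were counted from lists of 57 genes, of which 46 were tested: 18 rose and 21 fell into proliferation, 14 and 14 changed so from there to myotubes, and 16 and 20 in myotubes against freshly isolated cells. Read against the shares of all genes given above (37.6% and 35.7%, 28.6% and 25.5%, 40.2% and 37.3%), nothing is drawn from these counts about the lists as a whole. Of 8 tested activators and plasminogen system genes, 5 fell and 1 rose into proliferation, where 35.7% and 37.6% of all genes did. Plat, tissue plasminogen activator, fell from 660, 1234 and 1236 to 5, 13 and 3 and rose to 90, 120 and 81 in myotubes (log2 -7.17 and 3.80, adjusted p = 2.33e-07 and 5.12e-05). Pcsk5, a proprotein convertase, fell at each step, with means of 1745 ± 442, 32.3 ± 9.71 and 3.67 ± 2.08, whereas its relative Pcsk6 rose from 10.7 ± 5.86 to 149 ± 24.9 and stood at 68.3 ± 7.09 in myotubes.

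Of 7 other inhibitors tested, 5 fell and 1 rose in proliferating cells, where 35.7% and 37.6% of all genes did. Reck, a membrane-anchored inhibitor of MMPs, had 281, 277 and 316, then 65, 78 and 74, then 21, 46 and 25, and was lower at each step (log2 -2.00 and -1.29, adjusted p = 0.000114 and 0.0035). Papln, a secreted relative of the ADAMTS-like proteins, averaged 244 ± 38.7 in freshly isolated cells and under 5 in both cultured stages. Serpine2, a secreted serine protease inhibitor, averaged 66.3 ± 37, 149 ± 27.5 and 990 ± 80, and rose from proliferating cells to myotubes (log2 2.73, adjusted p = 4.58e-05).

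Of 9 other metalloproteinases tested, 7 were higher and 1 lower in proliferating cells, where 37.6% and 35.7% of all genes were. Adam19 had 33, 42 and 33, then 1340, 1371 and 1140, then 2423, 2439 and 2569, a log2 rise of 5.12 followed by one of 0.95 (adjusted p = 7.24e-10 and 0.000144). Adam12, which is known from fusing myoblasts, averaged 85.7 ± 51.6, 730 ± 168 and 466 ± 64.6. Of 18 substrates and cofactors tested, 8 rose and 7 fell into proliferation, where 37.6% and 35.7% of all genes did. Fn1, fibronectin, averaged 825 ± 120, 7865 ± 352 and 5959 ± 686, while Lrp1, the receptor that takes up ADAMTS5, MMP and TIMP complexes, fell at each step with 32154, 10117 and 2908. Among 4 cathepsins tested, Ctsk fell from 222 ± 13.5 to 2 ± 1 in proliferating cells. All 4 rose from proliferating cells to myotubes, where 28.6% of all genes did.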

How the data were processed

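RNA of 9 satellite cell libraries, 3 per stage, was sequenced after RiboGone depletion with the SMARTer Stranded kit, per the labels' protocols. The submitters' processing notes name STAR 2.4.0a, featureCounts 1.4.5-p1 of Subread and the build mm10 (GRCm38). For the strand setting and the tool of the normalization, nothing was found: both are not given in the sources used here. Score values deposited by the authors are gene read counts, scaled to a common level and rounded, so no test on counts was used. The spacing of low values gave the worth of 1 read. Columns named with Q were taken as freshly isolated by elimination. Positions and exon lengths come from GENCODE vM21, which held 51 of the 52 members.

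Values entered as log2(value + 1) where 3 or more libraries reached 10. All 9 libraries entered 1 limma fit with its trend option, checked on simulated data. Far fewer genes changed in the simulation than were called here, so no error rate is taken from it. Changes are therefore on the log2(value + 1) scale, which understates those of low genes, and folds are taken from it. Members, lists, motifs and tests were chosen with earlier results of these data known. All tested members are named, those with a stage mean of 100 or more by library. Partner genes named are, apart from Col3a1, among the up to 4 per list with the largest called change. Col3a1, Fos, Gm26917, the cell type and stage markers and the opposite-strand genes were named after their values were seen. Some genes that meet this rule are left out of the text. Alternatives were a pseudocount of 5, no filter, a filter at 50, scaling to equal totals or by median ratios, no trend, fits of 2 stages, a replicate block, and leaving out each library. Software was limma 3.58.1 under R 4.3.3, and pandas 2.3.3 and numpy 2.4.6 under Python 3.11.15, with plots from matplotlib 3.10.9.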

Additional observations from a re-analysis of the deposited data

How the results depend on the processing

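The counts of members called higher and lower stayed within 1.5 times their reported values under every alternative run. In the reported fit 77 of the 99 changes were called. Leaving out 1 library at a time altered the call of 14 of the 99 in at least 1 such fit. Over all alternatives 27 values turned direction, none of them called in the reported fit. Scaling to equal totals gave -0.0467 for Adamts12 (myotubes against proliferating cells) and 0.0467 for Adamtsl3 (myotubes against freshly isolated cells). Leaving out both libraries that stood apart (freshly isolated 1 and proliferating 1), an alternative chosen after seeing the data, gave 0.0188 for Adamtsl5 (proliferating against freshly isolated), 0.0809 for Mmp24, -0.10 for Mmp17 and 0.13 for Adamts3 (myotubes against proliferating), and 0.16 for Mmp28 (myotubes against freshly isolated). When 1 library was left out, changes from proliferating cells to myotubes ranged from -0.0213 to 0.21 for Adamts12, -0.70 to 0.30 for Adamts3, -0.0838 to 0.43 for Adamtsl4, -0.10 to 0.62 for Mmp17, -0.18 to 0.16 for Mmp24, -0.53 to 0.33 for Mmp25, -0.13 to 0.50 for Mmp28 and -0.27 to 0.0666 for Timp2. Against freshly isolated cells, myotubes ranged from -0.36 to 0.0596 for Adamts15, -0.32 to 0.16 for Adamtsl3 and -0.26 to 0.16 for Mmp28, and proliferating cells from -0.56 to 0.0128 for Mmp28. The causes were not tested.

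The replicate block gave 7 members higher and 21 lower in proliferating against freshly isolated cells, 14 and 5 from there to myotubes, and 9 and 19 in myotubes against freshly isolated cells. It changed the calls of Adamtsl3 and of no other member. Same-numbered libraries of different stages did not deviate together (correlations of -0.0338 to 0.027 over 9 pairs, against -0.0575 to 0.0585 for other pairs), so the numbers were not taken as pairs. The 19 members that were not tested lay mostly at 3 normalized counts or less, where no expression and too few reads cannot be told apart. The exceptions were Adamts13, Mmp21 and Timp4, each above 3 in several libraries with highest values of 50, 29 and 13. Mmp9 reached 5 in proliferating replicate 3.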
